A study of Mus musculus with 35 samples.

Results

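The 44 genes described here encode the soluble hydrolases of the lysosome, the cofactors that present lipids to them, a set of lysosomal membrane proteins, and Tfeb, a transcription factor of lysosomal genes. They were chosen as a named list, and each had to reach a mean of at least 1 FPKM (fragments scaled to gene length and to library depth) over all libraries; 44 of 44 did, among 11354 genes that passed the same filter and 47069 gene identifiers in all. RNA-seq was made from bone marrow-derived macrophages (BMDMs) of C57BL/6 mice, grown in L929-conditioned medium, and 35 libraries were analysed in 12 groups. WT cells (17 libraries) and cells labelled AMPKα1-/-, that is lacking Prkaa1, the gene of the catalytic α1 subunit of the energy sensor AMPK (18 libraries), were treated for 24 h with vehicle (DMSO), with the synthetic glucocorticoid dexamethasone (Dex, 100 nM), with bacterial lipopolysaccharide (LPS, 100 ng/ml), with LPS + Dex, with damage-associated molecular patterns (DAMPs, 1 µg/ml), or with DAMPs + Dex. Every group had 3 libraries except WT with LPS, which had 2 (replicates 2 and 3; replicate 1 was not analysed here). The preparation of the DAMPs is not given in the sources used here, and the labels do not tie libraries to mice. The study's methods count cultures of separate mice as its N unless a legend says otherwise, so the libraries of a group may each come from 1 mouse; p-values measure the spread between these libraries.

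The labels were checked first. Prkaa1 transcripts stood at 15.9, 11.8 and 15.3 FPKM in WT vehicle libraries and at 14.8, 16.5 and 15.4 FPKM in vehicle libraries labelled AMPKα1-/-, and the genotype contrast was called in 0 of 6 treatments. Its log2 difference, libraries labelled AMPKα1-/- against WT, was 0.12 ± 0.23 with vehicle, -0.29 ± 0.23 with Dex, -0.28 ± 0.26 with LPS, -0.20 ± 0.23 with LPS + Dex, 0.06 ± 0.23 with DAMPs and 0.33 ± 0.23 with DAMPs + Dex (limma adjusted p from 0.350 to 1), so no loss of its transcript was seen. A value for the whole gene cannot show the loss of an exon, so the genotype is given below only as labelled. The treatment markers moved with the labels. Tsc22d3, a gene switched on by the glucocorticoid receptor, rose from 54.3, 51.7 and 54.6 FPKM with vehicle to 724, 667 and 736 FPKM with Dex in WT BMDMs. Il1b, an inflammatory cytokine gene, was at 3.77, 5.67 and 5.45 FPKM with vehicle and at 13932 and 16653 FPKM with LPS. Of the macrophage markers, Lyz2 averaged 19655, Adgre1 1006 and Csf1r 577 FPKM in WT vehicle libraries, whereas Cd3e, which marks T cells, was below 1 FPKM there. The steps between low FPKM values put the depth at an estimated 15837203 to 31955298 fragments per library, with a median of 19973568. At that depth the scarcest member, Ctsk, rested on about 7 fragments in its lowest library and Sgsh, the next, on about 113.

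Lysosomes are acidic organelles in which proteins, glycans and lipids brought in by endocytosis, phagocytosis and autophagy are broken down, and macrophages carry an unusually large complement of them. Most soluble hydrolases reach the lysosome bound to mannose-phosphate receptors, and each cuts one kind of bond, so that loss of a single enzyme leads to a storage disease. TFEB and its relatives bind E-box sequences in the promoters of many lysosomal genes and raise their transcription when nutrients are scarce. The glucocorticoid receptor acts as a ligand-activated transcription factor that can both raise and lower its target genes.

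Promoter sequence is shown first because Tfeb is itself a member and its protein is known to bind the E-box of many lysosomal genes; binding was not measured here. RefSeq promoters (GRCm38.p6, 250 bases before to 50 bases after each start) were found for 39 of the 44 members. Npc1, Asah1, Galns, Ctsb and Ctsh were not matched. The E-box CACGTG, which reads the same on both strands, was present in 13 of 39 matched members (33.3%), against 8.09% of 27025 genes with a promoter of the same length. The members with it were Ctsa, Ctsd, Ctsf, Ctsl, Lgmn, Lamp1, Glb1, Gla, Gaa, Naglu, Arsa, Sgsh and Mcoln1. The 7 stretches below come from members whose values are followed in the text and from Lamp1, with 10 bases on either side, except that Lamp1 ends at the last base before the start. Capitals mark CACGTG, and each is written 5′ to 3′ on the strand of its gene.
Ctsd (chr7:142387910-142387935, minus strand): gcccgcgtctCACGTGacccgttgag
Ctsf (chr19:4855076-4855101, plus strand): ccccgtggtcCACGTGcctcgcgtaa
Ctsl (chr13:64370741-64370766, minus strand): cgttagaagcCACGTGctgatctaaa
Lgmn (chr12:102439126-102439151, minus strand): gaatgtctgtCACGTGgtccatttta
Sgsh (chr11:119355524-119355549, minus strand): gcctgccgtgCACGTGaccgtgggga
Mcoln1 (chr8:3500438-3500489, plus strand): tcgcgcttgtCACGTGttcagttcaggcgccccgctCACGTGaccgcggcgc
Lamp1 (chr8:13159090-13159160, plus strand): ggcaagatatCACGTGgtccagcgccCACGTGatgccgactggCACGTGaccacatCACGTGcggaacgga
Lamp1 holds 4 copies of the E-box, and Mcoln1 and Ctsd hold 2 each, of which the copy of Ctsd nearer the start is shown. Ctsa and Gla, not shown, also hold 2 each. The full CLEAR element, which is the E-box with GT before it and AC after it, was in 0 of 39 members and in 0.370% of all genes, and the palindromic glucocorticoid response element, AGAACA and TGTTCT set 3 bases apart, was in 0 of 39 and in 0.0111%. A core found in interferon-stimulated promoters, GAAA repeated after 2 bases, was in 3 members (Ctso, Ctss and Lamp1; 7.69%) and in 3.99% of all genes, searched on both strands.

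In untreated WT BMDMs the members spanned 12.1 to 7336 FPKM, a level per gene length. Ctsd, the main aspartic protease of the lysosome, was the highest at 7336 ± 113 FPKM (SD, n = 3), followed by Psap, the precursor of the saposins that lift sphingolipids to their hydrolases, at 4262 ± 162 FPKM. The cysteine proteases Ctsb and Ctss came next, at 3166 ± 187 and 2416 ± 243 FPKM, and then Grn (progranulin) and Cd63 (a tetraspanin of late endosomes), at 1766 ± 288 and 1713 ± 159 FPKM, which overlapped each other. At the other end stood the heparan sulfatase Sgsh at 15.5 ± 0.722, the acid sphingomyelinase Smpd1 at 13.2 ± 2.85 and the collagen-degrading cathepsin Ctsk at 12.1 ± 5.06 FPKM, and the ranges of these 3 genes overlapped or touched. The spread between replicates was itself uneven: Ctsh, an aminopeptidase, varied from 148 to 355 FPKM among the 3 WT vehicle libraries, and Lamp1 only from 727 to 751 FPKM.

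Summed over all 44 genes, the lysosomal transcripts made up 4.38% ± 0.133 (SD, n = 3) of the FPKM total in WT vehicle libraries and 4.81% ± 0.329 with Dex. With LPS the sum was 1.37% in both WT libraries, and with LPS + Dex it was 1.41% ± 0.0800. With DAMPs it was 4.52% ± 0.462 and with DAMPs + Dex 4.57% ± 0.0131, and the lowest DAMPs library, at 4.08%, lay below every vehicle library and the highest, at 4.9999%, above every one. In BMDMs labelled AMPKα1-/- the shares were 3.99% ± 0.304 with vehicle, 4.46% ± 0.128 with Dex, 1.49% ± 0.0360 with LPS, 1.41% ± 0.0210 with LPS + Dex, 4.17% ± 0.0915 with DAMPs and 4.13% ± 0.217 with DAMPs + Dex. A share of a total also moves with the rest of the total. Saa3, an acute-phase serum amyloid gene, alone took 19.3% of the FPKM sum with LPS + Dex in WT cells, against 7.16% with LPS and 0.0191% with vehicle. Without Saa3 the members' share was 1.75% with LPS + Dex and 1.48% with LPS, and the library ranges of these groups did not overlap. In bulk RNA, fewer cells of a type and less RNA per cell cannot be told apart.

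**Figure D1:**
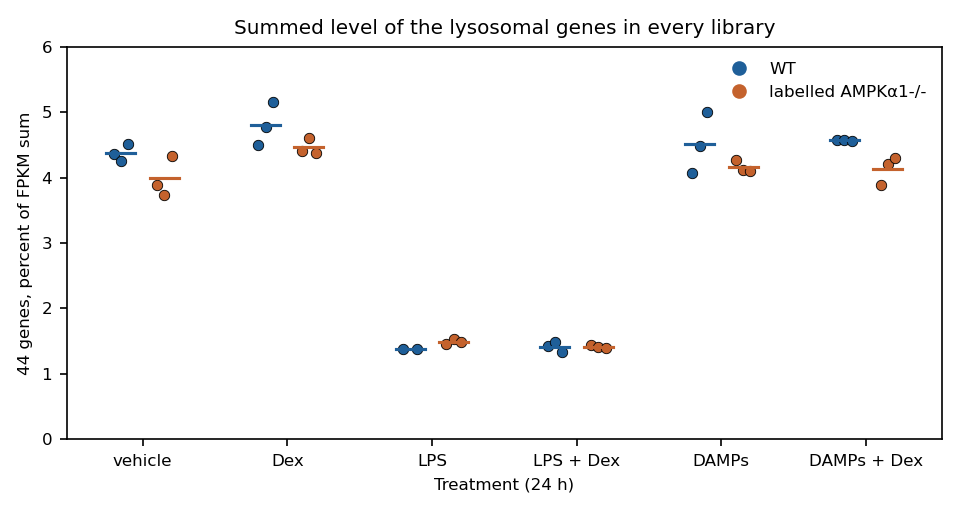
Summed FPKM of the 44 lysosomal genes as a percent of all FPKM in each of the 35 libraries, by group; points are libraries. The LPS and LPS + Dex libraries of both genotypes lie between 1.33% and 1.53%, and every other library lies between 3.74% and 5.16%.

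LPS lowered most of the list. Of 44 members, 33 fell and 1 rose in WT BMDMs, and 33 fell and 3 rose in BMDMs labelled AMPKα1-/- (limma adjusted p under 0.05); among all genes tested, 35.8% fell in WT and 44.1% in cells labelled AMPKα1-/-, and 19.9% and 20.2% rose. The 31 members that fell in both genotypes were 31 of the 33 in each. The median log2 fold change of the members was -1.26 in WT and -1.11 in cells labelled AMPKα1-/-, where the median over all genes tested was -0.19 and -0.30. With every library centred on one median, which takes that shift out, 29 members fell and 1 rose in WT and 31 fell and 3 rose in cells labelled AMPKα1-/-, while the share of all calls that were higher moved from 35.7% to 46.3% and from 31.4% to 48.96%. The shares of all genes that fell or rose, given above, are from the fit without centring. The libraries of LPS and vehicle did not overlap for 39 members in WT, where 72.1% of all genes did not overlap, and for 38 in cells labelled AMPKα1-/-, where 71.6% did not.

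Lipa and Psap, which serve lipid breakdown, had the lowest fold changes in WT on the log2(FPKM + 1) scale, a scale that understates the change of low genes such as Sgsh. Lipa encodes lysosomal acid lipase, which frees cholesterol and fatty acids from lipoprotein lipids. It stood at 756, 576 and 723 FPKM in WT vehicle libraries and at 38.6 and 34.7 FPKM with LPS, a log2 fold change of -4.18 ± 0.21 (SE; limma adjusted p = 1.04e-15). In cells labelled AMPKα1-/- it stood at 565, 576 and 645 FPKM with vehicle and 43.7, 39.8 and 31.3 FPKM with LPS (-3.94 ± 0.19, limma adjusted p = 2.34e-16). Every vehicle library was above every LPS library by a wide margin in both genotypes. Psap was at 4174, 4164 and 4449 FPKM with vehicle and 470.4 and 519 FPKM with LPS in WT (-3.11 ± 0.16, limma adjusted p = 1.19e-15), and at 3688, 3007 and 4258 and 577, 558 and 610.3 FPKM in cells labelled AMPKα1-/- (-2.63 ± 0.14, limma adjusted p = 2.46e-15). Again no libraries overlapped, and the second most abundant lysosomal transcript of untreated cells fell below Lgmn's untreated level. Of the 9 genes of lipid breakdown and transfer, 7 fell in WT and 8 in cells labelled AMPKα1-/-, among them Galc, which removes galactose from ceramide (-2.18 and -2.45), and Gm2a, which presents gangliosides to hexosaminidase (-2.15 and -1.83). Npc1, the membrane transporter that exports cholesterol from the lysosome, changed by -1.32 and -1.32. Its soluble partner Npc2, at 409.97, 477 and 399 FPKM with vehicle and 348 and 427 FPKM with LPS in WT, was not called in either genotype (limma adjusted p = 0.512 and 0.842).

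Most glycosidases, which take glycans apart, fell as well. Of 11 glycosidases, 10 fell in WT and 9 in cells labelled AMPKα1-/-. Man2b1, the lysosomal α-mannosidase, was at 162, 326 and 169 FPKM with vehicle and 27.7 and 25.9 FPKM with LPS in WT (-2.905 ± 0.27, limma adjusted p = 3.29e-10). In cells labelled AMPKα1-/- it was at 255, 228 and 345 and 37.6, 49.8 and 38.2 FPKM (-2.68 ± 0.24, limma adjusted p = 1.28e-10). The vehicle libraries differed among themselves, replicate 2 of WT being the highest, but all stood far above the LPS libraries. Hexa, the α subunit of hexosaminidase, changed by -2.61 and -2.22 on the log2 scale in WT and in cells labelled AMPKα1-/-, and Naglu, which acts on heparan sulfate, by -1.48 and -1.29. Neu1, the lysosomal sialidase, rose in cells labelled AMPKα1-/- (0.48, limma adjusted p = 1.02e-04), and in WT its change of 0.09 was not called (limma adjusted p = 0.523). Among the 5 sulfatases the directions split. Sgsh, which removes sulfate from heparan sulfate, went from 14.8, 16.3 and 15.5 FPKM with vehicle to 1.43 and 1.62 FPKM with LPS in WT (-2.71 ± 0.19, limma adjusted p = 1.59e-12) and changed by -2.59 ± 0.17 in cells labelled AMPKα1-/- (limma adjusted p = 2.91e-13). Galns, which acts on keratan and chondroitin sulfate, was the 1 member that rose in both genotypes: 14.4, 15.1 and 17.5 FPKM with vehicle and 24.6 and 24.8 FPKM with LPS in WT (0.63 ± 0.13, limma adjusted p = 1.12e-04), and 0.86 in cells labelled AMPKα1-/- (limma adjusted p = 1.96e-07). Its LPS libraries lay above every vehicle library.

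Of the proteases, the aspartic protease Ctsd and the serine proteases Ctsa and Tpp1 fell in both genotypes, and 6 of 10 cysteine proteases fell in each. Ctsd stood at 7368, 7210.4 and 7429 FPKM with vehicle and 1484 and 1568 FPKM with LPS in WT (-2.26 ± 0.16, limma adjusted p = 1.44e-12). Lgmn, the asparaginyl endopeptidase that also cleaves other cathepsins, stood at 746, 857 and 804 and 95.4 and 168 FPKM in WT (-2.65 ± 0.22, limma adjusted p = 3.41e-11), and at 625, 679 and 761 and 88.9, 133 and 80.1 FPKM in cells labelled AMPKα1-/- (-2.79 ± 0.19, limma adjusted p = 8.42e-13). Neither gene had an LPS library inside its vehicle range. Ctsb, Ctsf, Ctsk, Ctsl and Ctss fell as well, with log2 fold changes in WT of -2.44, -2.19, -2.31, -1.75 and -1.22. Ctsc, the dipeptidyl peptidase that activates granule serine proteases, did not follow: it was at 355, 386 and 338 FPKM with vehicle and 346 and 353 FPKM with LPS in WT, and its ranges overlapped (-0.04 ± 0.20, limma adjusted p = 0.886). Ctsh (0.47 and -0.02) and Ctso (-0.35 and -0.28) were not called in either genotype. With the replicate number as a block, Ctsh was called higher in WT (0.74, limma adjusted p = 0.0466; 0.462 without it). Replicate numbers did not pair libraries in that comparison, and WT with LPS has no replicate 1. Ctsz was called in cells labelled AMPKα1-/-, where it rose (0.78, limma adjusted p = 5.98e-05).

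Tfeb itself fell. It stood at 152, 154 and 143 FPKM with vehicle and 27.01 and 32.8 FPKM with LPS in WT (-2.29 ± 0.15, limma adjusted p = 5.90e-13), and at 146, 126 and 176 and 32.4, 35.4 and 35.3 FPKM in cells labelled AMPKα1-/- (-2.08 ± 0.14, limma adjusted p = 3.10e-13). Lamp1, the abundant glycoprotein of the lysosomal membrane, was at 748, 727 and 751 FPKM with vehicle and 333 and 315 FPKM with LPS in WT (-1.19 ± 0.11, limma adjusted p = 6.11e-10), and changed by -1.18 ± 0.10 in cells labelled AMPKα1-/- (limma adjusted p = 6.39e-11). Both genes had their lowest vehicle library above their highest LPS library. For the 4 membrane proteins the median change in WT was -0.84, and 3 of them fell. Lamp2 changed by -0.16 (limma adjusted p = 0.464) in WT and by -0.33 in cells labelled AMPKα1-/- (limma adjusted p = 0.0647; 0.0438 with the replicate number as a block), and Mcoln1, a calcium channel of the lysosome, fell by 0.49 in WT (limma adjusted p = 0.0482) and was not called in cells labelled AMPKα1-/-. Leaving out each library in turn, 32 of the 34 calls in WT and 36 of the 36 in cells labelled AMPKα1-/- held throughout. In WT, Grn lost its call without LPS replicate 2 (adjusted p = 0.0795). Mcoln1 lost its call without LPS replicate 2 or 3 or vehicle replicate 2 or 3 (adjusted p up to 0.309). Among the 13 members with CACGTG in the promoter, 13 fell in WT (median -1.48) and 11 in cells labelled AMPKα1-/- (median -1.29); of the 26 matched members without it, 17 and 19 fell (medians -1.096 and -0.94). With LPS + Dex against LPS in WT, 4 of the 13 were higher and 2 lower, and 9 and 5 of the 26 (16.6% and 17.5% of all genes). Those numbers were 5 and 2, and 10 and 6, in cells labelled AMPKα1-/- (19.3% and 18.4% of all genes). These counts are a description and were not tested. Of 6 dendritic cell markers, 1 passed the filter: Ccr7, at 0.0377 FPKM with vehicle and 73.7 FPKM with LPS in WT. The others averaged below 1 FPKM in both groups apart from Xcr1 with LPS (1.27 FPKM), with Flt3 and Siglech at 0 FPKM with LPS. The 9 macrophage markers summed to 21811, 27825 and 21868 FPKM with vehicle and 19260.3 and 16389 FPKM with LPS, mostly Lyz2 (19655 and 12857 FPKM on average). Within the list the averages went both ways, Csf1r from 577 to 228, Adgre1 from 1006 to 1903, Cd14 from 217 to 1632 and Fcgr1 from 80.6 to 323 FPKM. The 12 neutrophil markers summed to 41.9, 6.58 and 22.2 FPKM with vehicle and 162 and 127 FPKM with LPS in WT, mostly Camp with LPS. On average Camp went from 0.639 to 122.8 FPKM and S100a8 from 5.55 to 18.8 FPKM, and the other members that passed the filter went the other way. Mmp8 went from 9.59 to 0.909, S100a9 from 4.22 to 1.83, Ngp from 1.90 to 0 and Ltf from 1.46 to 0.154 FPKM. The part of these markers' cells in the result was not tested.

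**Figure D2:**
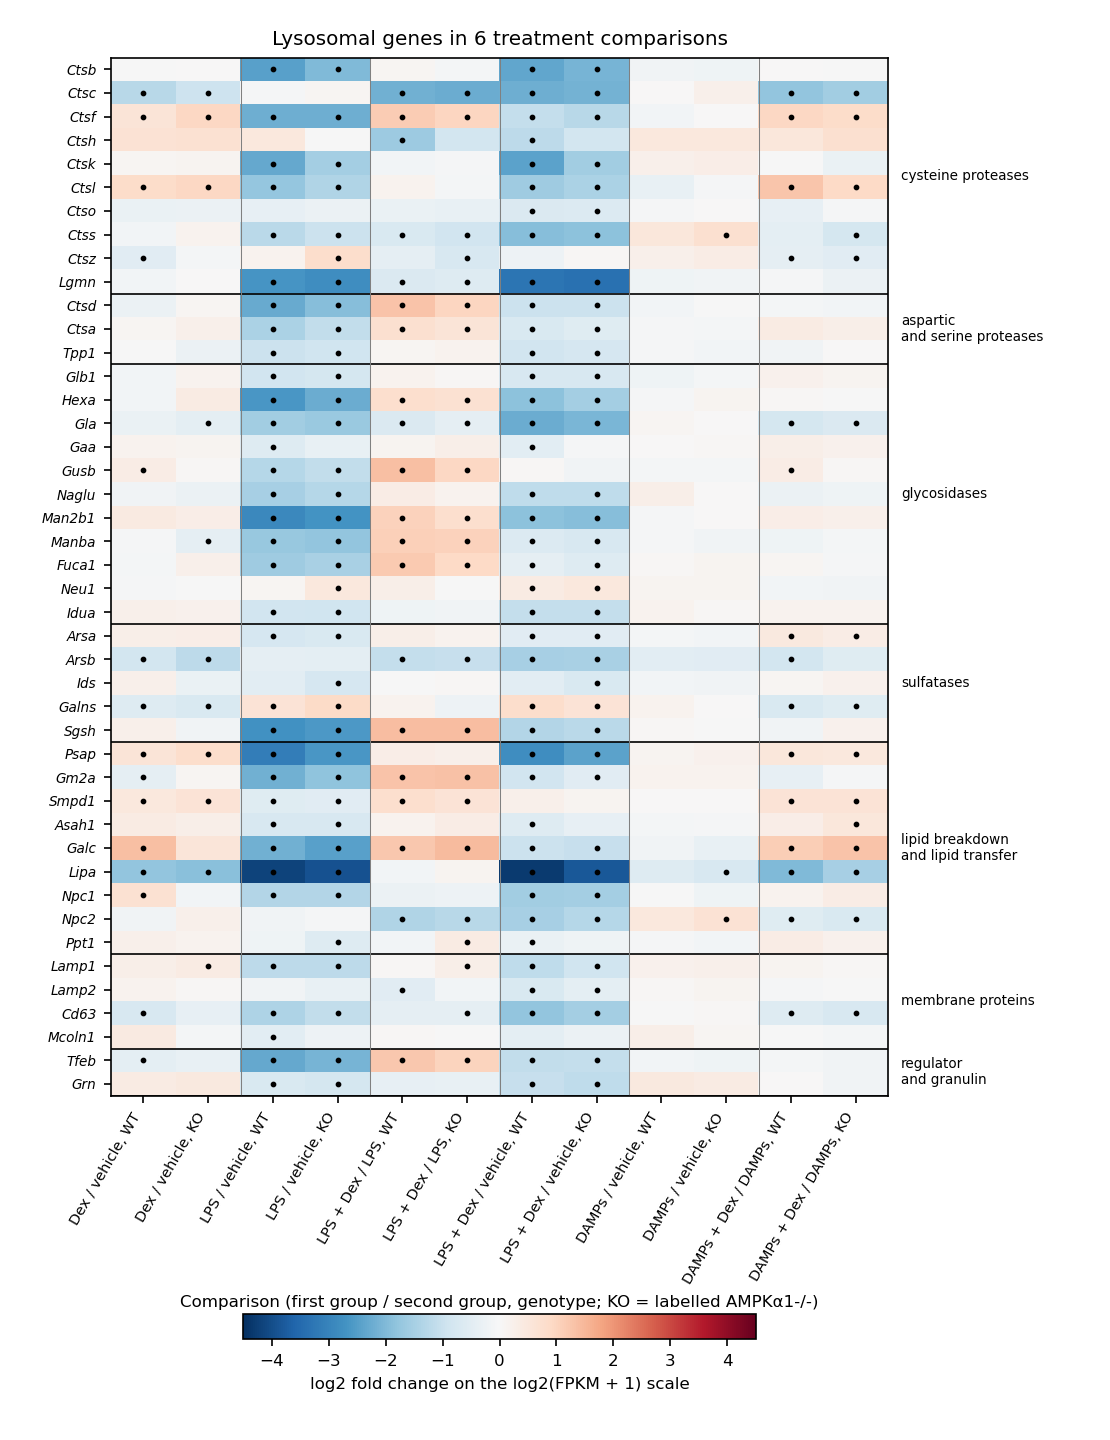
Heatmap of log2 fold changes on the log2(FPKM + 1) scale for the 44 genes (rows, grouped by role) in 12 treatment comparisons (columns); blue is lower, red is higher, and a black dot marks limma adjusted p under 0.05. The LPS and LPS + Dex columns against vehicle are blue for most rows, and the DAMPs columns hold 0 dots in WT and 3 in cells labelled AMPKα1-/-.

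Adding Dex to LPS raised some members and lowered others. Against LPS alone, 13 members were higher and 8 lower in WT BMDMs, and 15 were higher and 8 lower in BMDMs labelled AMPKα1-/- (limma adjusted p under 0.05). Among all genes tested, 16.6% were higher and 17.5% lower in WT, and 19.3% and 18.4% in cells labelled AMPKα1-/-. The share of members lower was thus near that of all genes. The higher members common to both genotypes, 13 of the 13 in WT and of the 15 in cells labelled AMPKα1-/-, were Ctsa, Ctsd, Ctsf, Fuca1, Galc, Gm2a, Gusb, Hexa, Man2b1, Manba, Sgsh, Smpd1 and Tfeb. The lower members common to both, 6 of the 8 in each, were Arsb, Ctsc, Ctss, Gla, Lgmn and Npc2. The median change of the members was 0.10 in WT, and over all genes -0.03. Ccr7, the dendritic cell marker that passed the filter, averaged 73.7 FPKM with LPS and 0.860 FPKM with LPS + Dex in WT. In cells labelled AMPKα1-/- it averaged 63.8 and 0.720 FPKM. The part of such cells in the result was not tested. This comparison and LPS against vehicle share the LPS libraries, so the values of the groups are set side by side below.

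Sgsh stood at 1.43 and 1.62 FPKM with LPS and 7.15, 7.33 and 3.25 FPKM with LPS + Dex in WT (1.39 ± 0.19, limma adjusted p = 1.27e-06), and at 1.74, 1.52 and 1.35 and 5.66, 5.56 and 5.56 FPKM in cells labelled AMPKα1-/- (1.38 ± 0.17, limma adjusted p = 1.67e-07). Every LPS + Dex library was above every LPS library and below every vehicle library. Galc was at 5.24, 5.59 and 3.57 FPKM with LPS and 14.5, 16.8 and 11.9 FPKM with LPS + Dex in cells labelled AMPKα1-/- (1.41 ± 0.25, limma adjusted p = 3.78e-05), against 29.01, 29.9 and 32.1 FPKM with vehicle. Gm2a was at 21.7, 23.7 and 12.8 FPKM with LPS, 49.2, 50.2 and 44.3 FPKM with LPS + Dex and 66.9, 57.6 and 85.3 FPKM with vehicle in the same cells (1.305 ± 0.16 for LPS + Dex against LPS, limma adjusted p = 1.24e-07). In each of these genes the LPS + Dex libraries lay between the other groups without overlap. Ctsd, at 1484 and 1568 FPKM with LPS, stood at 3342, 3653 and 4215 FPKM with LPS + Dex in WT (1.28 ± 0.16, limma adjusted p = 2.14e-07). Tfeb, at 27.01 and 32.8 FPKM with LPS, stood at 70.9, 67.4 and 70.05 FPKM with LPS + Dex in WT (1.195 ± 0.15, limma adjusted p = 4.18e-07) and changed by 0.99 ± 0.14 in cells labelled AMPKα1-/- (limma adjusted p = 1.08e-06). Gusb (β-glucuronidase), Fuca1 (α-fucosidase) and Manba (β-mannosidase), all glycosidases, rose by 1.34, 1.19 and 1.07 in WT.

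Ctsc moved farthest downward. It stood at 346 and 353 FPKM with LPS and 80.3, 96.4 and 60.998 FPKM with LPS + Dex in WT (-2.15 ± 0.20, limma adjusted p = 1.52e-09), and at 370.2, 347 and 296 and 82.04, 71.7 and 59.6 FPKM in cells labelled AMPKα1-/- (-2.24 ± 0.18, limma adjusted p = 5.43e-11). Npc2 stood at 348 and 427 and 129.6, 155 and 167 FPKM in WT (-1.36 ± 0.18, limma adjusted p = 7.78e-07) and changed by -1.24 ± 0.16 in cells labelled AMPKα1-/- (limma adjusted p = 4.08e-07). Neither gene had been called with LPS alone, and no LPS + Dex library of either reached an LPS library. Ctsh was at 263 and 308 FPKM with LPS and 127, 71.8 and 83.1 FPKM with LPS + Dex in WT (-1.63 ± 0.52, limma adjusted p = 0.0148), a call that was lost without WT LPS replicate 2 (adjusted p = 0.0585), WT LPS replicate 3 (0.0966) or WT LPS + Dex replicate 2 (0.0565). In cells labelled AMPKα1-/-, Ctsh was at 169, 274 and 382 and 101, 158 and 203 FPKM, the ranges overlapped, and the limma adjusted p was 0.181, or 0.0201 with the replicate number as a block. Ctss, which trims the invariant chain of MHC class II, changed by -0.68 and -0.87, and Lgmn by -0.65 and -0.58, so that these proteases were lower with LPS + Dex than with LPS. Some of these calls rested on single libraries. In WT, Ctss lost its call without LPS replicate 3 (adjusted p = 0.132). Lgmn lost its call without LPS + Dex replicate 1 or 3 or LPS replicate 3 (adjusted p up to 0.510). Lamp2 lost its call without LPS replicate 2 or LPS + Dex replicate 3 (adjusted p up to 0.205). Among the cells labelled AMPKα1-/-, Lgmn lost its call without LPS + Dex replicate 1 or 3 or LPS replicate 2 (adjusted p up to 0.174). Cd63 lost its call without LPS replicate 1 or 3 or LPS + Dex replicate 2 (adjusted p up to 0.218). Gla lost its call without LPS replicate 1 or LPS + Dex replicate 2 (adjusted p up to 0.0955). Ppt1 lost its call without LPS + Dex replicate 1 or 2 or LPS replicate 3 (adjusted p up to 0.250). Lamp1, at 327, 366 and 321 FPKM with LPS + Dex in WT, was not called (0.06, limma adjusted p = 0.735). It was called higher in cells labelled AMPKα1-/- (0.28, limma adjusted p = 0.0294), but not without LPS replicate 3 (adjusted p = 0.208) or LPS + Dex replicate 1 (0.116) or 3 (0.0513) of those cells. Nor was it called there with libraries centred on one median (adjusted p = 0.0814) or with only the groups compared in the fit (0.128). Ctso, lower by 0.34 there, was called with the block only (adjusted p = 0.0488, without it 0.0596).

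**Figure D3:**
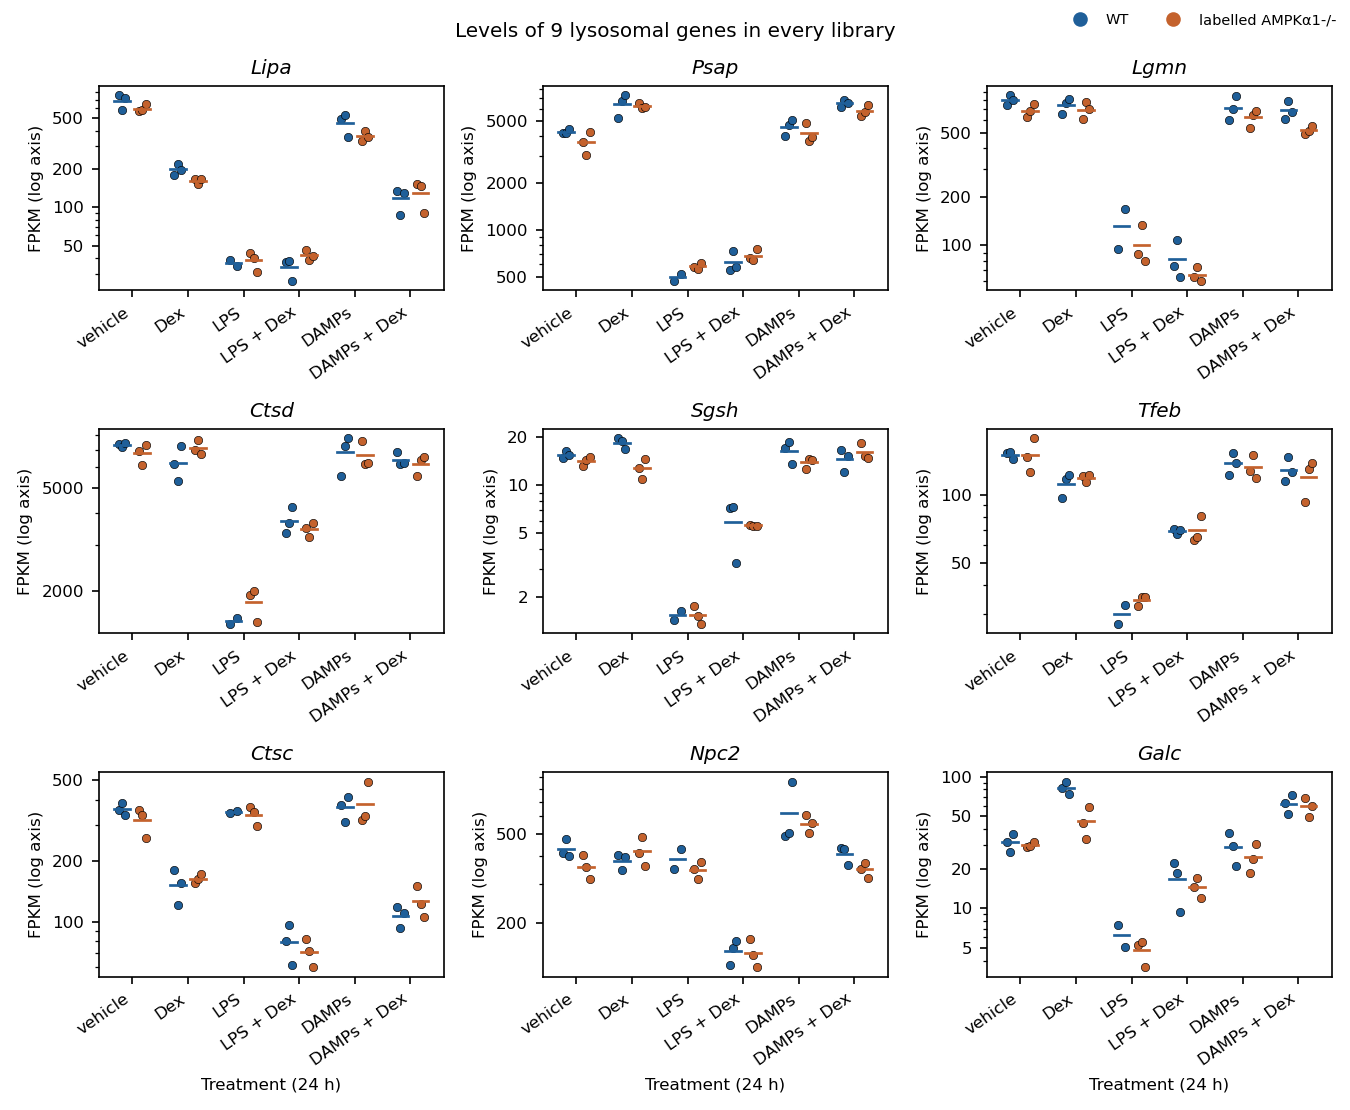
FPKM in each library (log axis) for Lipa, Psap, Lgmn, Ctsd, Sgsh, Tfeb, Ctsc, Npc2 and Galc, by treatment and genotype; each point is 1 library. Lipa and Psap stay low with LPS + Dex, Sgsh and Tfeb lie between LPS and vehicle, and Ctsc is low in every group that received Dex, from 59.6 to 179.8 FPKM.

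Against vehicle, most members were low with LPS + Dex: 37 were lower and 2 higher in WT, and 34 were lower and 2 higher in cells labelled AMPKα1-/- (limma adjusted p under 0.05; 37% and 40.8% of all genes lower, 17.2% and 16.7% higher). The lower members common to both genotypes were 33 of the 37 and of the 34. Galns and Neu1 were the 2 higher members in both. With libraries centred on one median, 31 members were lower and 3 higher in WT, and 29 lower and 3 higher in cells labelled AMPKα1-/-. The shares of all genes given above are from the fit without centring, and those with centring are not reported here. Lipa had the largest fold change, at 37.2, 37.8 and 26.5 FPKM in WT (-4.31 ± 0.19, limma adjusted p = 5.46e-17) and 46.1, 38.3 and 41.5 FPKM in cells labelled AMPKα1-/- (-3.797 ± 0.19, limma adjusted p = 8.03e-16), and its LPS and LPS + Dex libraries overlapped. Lgmn was at 74.5, 108 and 63.98 FPKM in WT (-3.302 ± 0.19, limma adjusted p = 4.00e-14) and 63.8, 73.4 and 60.2 FPKM in cells labelled AMPKα1-/- (-3.37 ± 0.19, limma adjusted p = 2.60e-14). Psap was at 549.7, 731 and 577 and 657, 638 and 751 FPKM in the 2 genotypes, -2.79 and -2.41 against vehicle on the log2 scale. For all 3 genes every LPS + Dex library lay several-fold below every vehicle library. Ctsk was at 1.17, 1.11 and 1.62 FPKM in WT, against 14.2, 6.297 and 15.7 FPKM with vehicle (-2.42 ± 0.24, limma adjusted p = 1.67e-09). Ctsh fell in WT (-1.16, limma adjusted p = 0.0353), and in cells labelled AMPKα1-/- its change of -0.83 had a limma adjusted p of 0.128, or 0.0121 with the replicate block. Some calls in WT were lost on leaving out 1 library. Ctsh lost its call without vehicle replicate 1 or LPS + Dex replicate 2 or 3 (adjusted p up to 0.213). Fuca1 lost its call without LPS + Dex replicate 1 or vehicle replicate 2 (adjusted p up to 0.0733). Gaa lost its call without LPS + Dex replicate 1 or vehicle replicate 2 (adjusted p up to 0.0529). Ppt1 lost its call without LPS + Dex replicate 1 or 3 or vehicle replicate 1, 2 or 3 (adjusted p up to 0.197). Among the cells labelled AMPKα1-/-, Gm2a lost its call without vehicle replicate 3 (adjusted p = 0.0679). Ids lost its call without LPS + Dex replicate 3 (adjusted p = 0.0565). Lamp2 lost its call without vehicle replicate 2 or LPS + Dex replicate 3 (adjusted p up to 0.146). S100a8, listed among the neutrophil markers, was at 5.55 FPKM with vehicle, 18.8 with LPS and 747 with LPS + Dex in WT, and the 12 markers of that list summed to 41.9, 6.58 and 22.2 FPKM with vehicle and 655, 513 and 1201 FPKM with LPS + Dex. Camp, another of the list, averaged 0.639 FPKM with vehicle, 122.8 with LPS and 39.9 with LPS + Dex. The summed rise was thus mostly S100a8. The other members of that list that passed the filter averaged lower with LPS + Dex than with vehicle in WT. Mmp8 was at 1.47 against 9.59 and S100a9 at 0.527 against 4.22 FPKM. Ngp was at 0.0461 against 1.90 and Ltf at 0.0174 against 1.46 FPKM. The defining neutrophil genes Ly6g, Elane and Mpo stayed below 1 FPKM in the means of all groups.

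Dex without LPS was called for fewer members, in both directions and in shares near those of all genes. Against vehicle, 7 rose and 8 fell in WT, and 5 rose and 6 fell in cells labelled AMPKα1-/- (limma adjusted p under 0.05), against 15.9% higher and 14.9% lower among all genes in WT and 11.9% and 16% in cells labelled AMPKα1-/-. Members that rose in both genotypes were Ctsf, Ctsl, Psap and Smpd1 (4 of the 7 and of the 5), and those that fell in both were Arsb, Ctsc, Galns and Lipa (4 of the 8 and of the 6). Lipa stood at 179, 218 and 197 FPKM with Dex in WT (-1.78 ± 0.19, limma adjusted p = 2.69e-08) and at 167, 151 and 165 FPKM in cells labelled AMPKα1-/- (-1.88 ± 0.19, limma adjusted p = 9.95e-09), below every vehicle library and above every LPS library. Ctsc stood at 179.8, 121 and 155 FPKM in WT (-1.25 ± 0.18, limma adjusted p = 4.54e-06) and 156, 162 and 172 FPKM in cells labelled AMPKα1-/- (-0.94 ± 0.18, limma adjusted p = 1.96e-04). Its 6 Dex libraries were all below its 6 vehicle libraries. Arsb, the sulfatase of dermatan sulfate, was at 15.2, 18.9 and 17.3 FPKM with vehicle and 8.397, 11.1 and 7.98 FPKM with Dex in WT (-0.84 ± 0.25, limma adjusted p = 0.0131; 0.0559 without WT vehicle replicate 2), and at 12.4, 14.6 and 9.8995 and 5.15, 4.61 and 4.71 FPKM in cells labelled AMPKα1-/- (-1.18 ± 0.25, limma adjusted p = 8.01e-04). Galc rose from 32.1, 26.8 and 36.6 to 81.7, 91.3 and 73.98 FPKM in WT (1.35 ± 0.25, limma adjusted p = 1.36e-04), and in cells labelled AMPKα1-/- it was at 44.1, 33.8 and 58.97 FPKM with Dex (0.54 ± 0.25, limma adjusted p = 0.109). Ctsf, a cysteine protease, rose from 27.9, 21.9 and 21.8 to 48.3, 48.3 and 43.6 FPKM in cells labelled AMPKα1-/- (0.95 ± 0.14, limma adjusted p = 5.11e-06) and by 0.57 in WT. Psap, which fell with LPS, rose with Dex alone to 5217, 6744 and 7331 FPKM in WT (0.58 ± 0.14, limma adjusted p = 0.00224) and by 0.79 in cells labelled AMPKα1-/-. Tfeb stood at 96.1, 116 and 122 FPKM with Dex in WT, lower by 0.43 (limma adjusted p = 0.0198), a call lost without WT Dex replicate 1 (adjusted p = 0.118) or WT vehicle replicate 1 (0.0512) or 2 (0.0671). With the replicate number as a block, Arsa, Hexa, Cd63 and Grn were called as well in cells labelled AMPKα1-/-, with adjusted p of 0.0397, 0.0345, 0.0447 and 0.0390. Without the block, Lamp1 was higher in those cells by 0.36 (limma adjusted p = 0.00884; 0.0514 without vehicle replicate 2, 0.0792 with quantile normalization). In WT its change of 0.26 was not called (limma adjusted p = 0.0545). It was called in WT with quantile normalization (0.00317), without Dex replicate 1 (0.0304) or with the block (0.0390), though replicate numbers did not pair libraries there. Other calls were lost on leaving out 1 library. In WT, Ctsz lost its call without Dex replicate 2 or vehicle replicate 2 (adjusted p up to 0.0682). Gm2a lost its call without Dex replicate 1 or 2 or vehicle replicate 1, 2 or 3 (adjusted p up to 0.128). Gusb lost its call without vehicle replicate 1 or 2 or Dex replicate 3 (adjusted p up to 0.124). Among the cells labelled AMPKα1-/-, Gla lost its call without Dex replicate 1 or vehicle replicate 3 (adjusted p up to 0.0672). Manba lost its call without Dex replicate 1 or 2 or vehicle replicate 2 or 3 (adjusted p up to 0.187).

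The same design on a DAMPs background, in libraries that the previous comparison did not use, called 7 members higher and 8 lower in WT and 7 higher and 8 lower in cells labelled AMPKα1-/- (DAMPs + Dex against DAMPs; limma adjusted p under 0.05; of all genes 11.7% were higher and 12.6% lower in WT, and 13.1% and 12.2% in cells labelled AMPKα1-/-). Ctsf, Ctsl, Psap and Smpd1 were higher, and Ctsc, Galns and Lipa were lower, with Dex in all 4 comparisons made without LPS. Lipa was at 497, 532 and 353 FPKM with DAMPs and 135, 87.2 and 129.8 FPKM with DAMPs + Dex in WT (-1.97 ± 0.19, limma adjusted p = 3.91e-09), and at 332, 398 and 358 and 151, 147 and 90.3 FPKM in cells labelled AMPKα1-/- (-1.51 ± 0.19, limma adjusted p = 3.84e-07). Ctsc was at 379, 312 and 413 and 118, 93.1 and 110.5 FPKM in WT (-1.77 ± 0.18, limma adjusted p = 1.43e-08) and changed by -1.57 ± 0.18 in cells labelled AMPKα1-/- (limma adjusted p = 1.05e-07). These falls separated the groups completely in both genotypes. Ctsl, the cathepsin that degrades a broad range of lysosomal cargo, rose from 1162, 948 and 1132 to 2758, 2653 and 2218 FPKM in WT (1.23 ± 0.16, limma adjusted p = 9.18e-07) and from 928, 1111 and 962 to 1647, 2014 and 1898 FPKM in cells labelled AMPKα1-/- (0.89 ± 0.16, limma adjusted p = 1.07e-04). Galc rose from 37.3, 29.6 and 20.9 to 63.4, 51.7 and 72.1 FPKM in WT (1.09 ± 0.25, limma adjusted p = 0.00140) and by 1.27 ± 0.25 in cells labelled AMPKα1-/- (limma adjusted p = 2.75e-04). The DAMPs + Dex libraries were higher than all DAMPs libraries for both genes. Lamp1 and Tfeb were not called in either genotype (limma adjusted p = 0.408 and 0.696 in WT, 0.756 and 0.467 in cells labelled AMPKα1-/-). Of the 15 calls in each genotype, 8 in WT and 11 in cells labelled AMPKα1-/- held without any one library. In WT, Psap lost its call without DAMPs replicate 1 (adjusted p = 0.0532). Arsa lost its call without DAMPs replicate 1 (adjusted p = 0.0714). Arsb lost its call without DAMPs replicate 1 or 2 or DAMPs + Dex replicate 2 (adjusted p up to 0.102). Cd63 lost its call without DAMPs replicate 3 (adjusted p = 0.0537). Ctsz lost its call without DAMPs + Dex replicate 1, 2 or 3 or DAMPs replicate 2 or 3 (adjusted p up to 0.295). Gusb lost its call without DAMPs replicate 1 or DAMPs + Dex replicate 1 or 3 (adjusted p up to 0.104). Npc2 lost its call without DAMPs replicate 3 or DAMPs + Dex replicate 3 (adjusted p up to 0.164). Among the cells labelled AMPKα1-/-, Psap lost its call without DAMPs replicate 2 or DAMPs + Dex replicate 3 (adjusted p up to 0.0649). Arsa lost its call without DAMPs replicate 1 or 3 or DAMPs + Dex replicate 2 or 3 (adjusted p up to 0.200). Asah1 lost its call without DAMPs replicate 1 or 2 or DAMPs + Dex replicate 1 (adjusted p up to 0.128). Ctsz lost its call without DAMPs replicate 1 or DAMPs + Dex replicate 1 (adjusted p up to 0.0794).

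Whether Dex acted on a member differently with and without LPS was tested as the difference of its effects, LPS + Dex against LPS minus Dex against vehicle. The difference was called for 18 members in WT (11 higher and 7 lower with LPS; 14.9% and 17.1% of all genes) and 17 in cells labelled AMPKα1-/- (10 and 7; 15.5% and 12.8%), where limma called 32% and 28.4% of all genes. With libraries centred on one median, the share of all calls that were higher moved from 46.5% to 56.7% in WT. Ctsd, Fuca1, Galns, Gm2a, Gusb, Lipa, Manba, Sgsh and Tfeb had a higher difference in both genotypes, and Ctsc, Ctsl, Grn and Npc2 a lower one. Gm2a changed by -0.42 ± 0.16 with Dex alone and by 1.28 ± 0.18 with Dex on LPS in WT, a difference of 1.69 ± 0.24 (limma adjusted p = 3.55e-06). Its WT libraries stood at 81.7, 79.2 and 88.5 FPKM with vehicle, 58.6, 60.5 and 67.2 with Dex, 15.8 and 20.4 with LPS and 40.4, 54.1 and 41.7 with LPS + Dex. Dex thus went with lower values in the first pair of groups and higher values in the second. Tfeb changed by -0.43 ± 0.14 and 1.195 ± 0.15 in WT (difference 1.62 ± 0.21, limma adjusted p = 7.65e-07) and by -0.32 ± 0.14 and 0.99 ± 0.14 in cells labelled AMPKα1-/- (difference 1.31 ± 0.19, limma adjusted p = 6.79e-06), where the change with Dex alone was not called (limma adjusted p = 0.0877). Ctsd changed by -0.25 ± 0.14 with Dex alone, which was not called, and by 1.28 ± 0.16 with Dex on LPS in WT (difference 1.53 ± 0.21, limma adjusted p = 3.02e-06). Its Dex libraries, at 6165, 5297 and 7232 FPKM, overlapped the vehicle range. In cells labelled AMPKα1-/-, Manba stood at 44.1, 51.7 and 57.01 FPKM with vehicle, 37.9, 33.8 and 41.4 with Dex, 13.2, 19.4 and 11.2 with LPS and 28.7, 36.05 and 27.6 with LPS + Dex (difference 1.47 ± 0.22, limma adjusted p = 1.01e-05). For Lipa the difference was 2.02 ± 0.26 in cells labelled AMPKα1-/- (limma adjusted p = 1.01e-06): Dex alone changed it by -1.88, and Dex on LPS by 0.14, where it was already low. Ctsh had a difference of -2.301 ± 0.69 in WT (limma adjusted p = 0.0124) and of -1.49 in cells labelled AMPKα1-/-, which was called with the replicate block only (adjusted p = 0.00440, without it 0.0914). Ctsf and Smpd1 were higher with Dex in every comparison that added it, in both genotypes, and Ctsc lower in every one. Of the called differences, 13 of 18 in WT and 11 of 17 in cells labelled AMPKα1-/- held without any one library. In WT, Ctsl lost its call without Dex replicate 1 or LPS replicate 2 or vehicle replicate 2 or LPS + Dex replicate 3 (adjusted p up to 0.152). Grn lost its call without LPS + Dex replicate 1 or 3 or vehicle replicate 1 or 3 or Dex replicate 2 or 3 or LPS replicate 2 or 3 (adjusted p up to 0.149). Ctsf lost its call without Dex replicate 1 or 2 or LPS replicate 2 or LPS + Dex replicate 2 or 3 or vehicle replicate 2 (adjusted p up to 0.166). Lamp2 lost its call without Dex replicate 1 or LPS replicate 2 or vehicle replicate 2 or LPS + Dex replicate 3 (adjusted p up to 0.129). Npc1 lost its call without LPS replicate 2 or LPS + Dex replicate 3 (adjusted p up to 0.0597). Among the cells labelled AMPKα1-/-, Fuca1 lost its call without LPS replicate 3 (adjusted p = 0.0718). Galns lost its call without Dex replicate 1 or 3 or LPS replicate 1 or LPS + Dex replicate 3 or vehicle replicate 3 (adjusted p up to 0.113). Grn lost its call without LPS + Dex replicate 1 or Dex replicate 2 or LPS replicate 2 or 3 or vehicle replicate 2 (adjusted p up to 0.0683). Ctsz lost its call without LPS + Dex replicate 1 or 2 or Dex replicate 2 or vehicle replicate 2 or LPS replicate 3 (adjusted p up to 0.0794). Psap lost its call without Dex replicate 1 or LPS + Dex replicate 1 or 2 or vehicle replicate 2 or LPS replicate 3 (adjusted p up to 0.118). Tpp1 lost its call without Dex replicate 2 or LPS replicate 2 or 3 or LPS + Dex replicate 3 or vehicle replicate 3 (adjusted p up to 0.125).

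**Figure D4:**
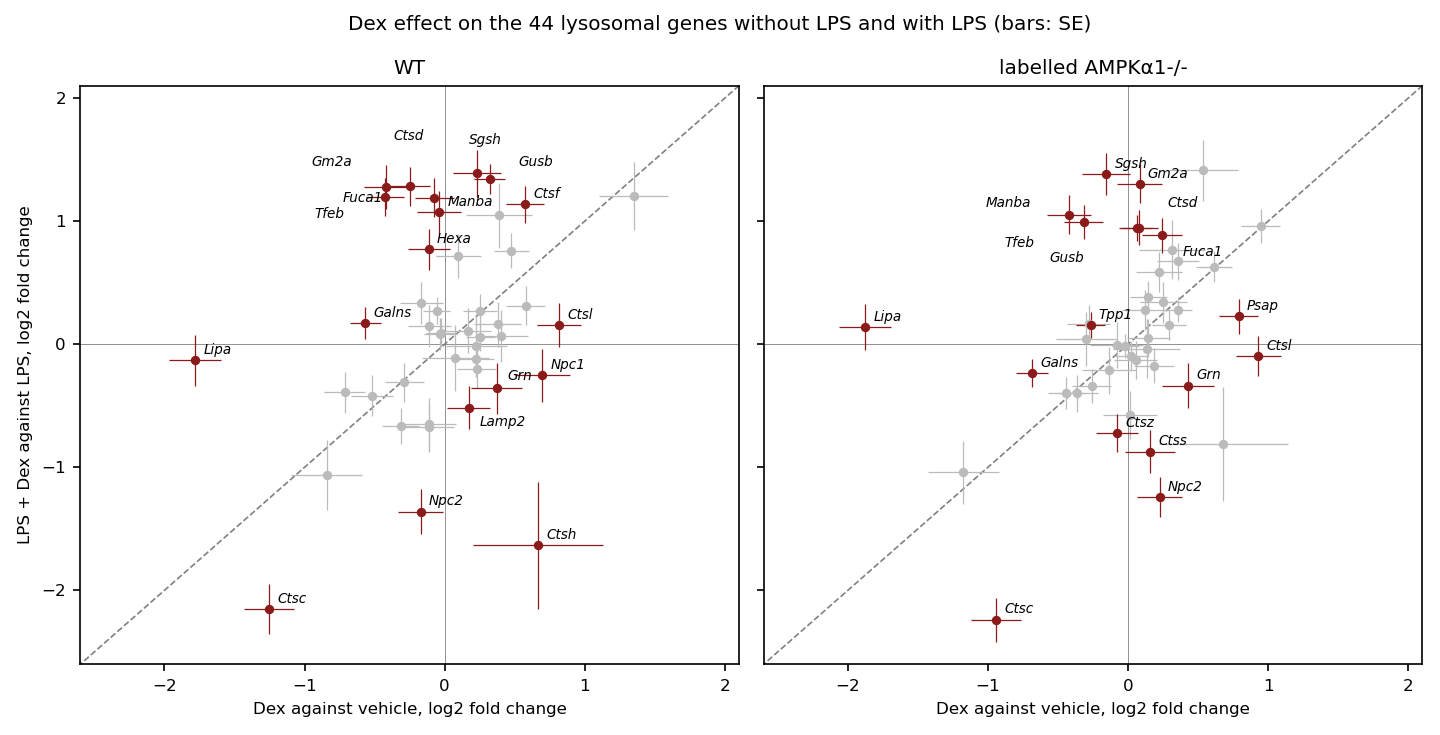
Log2 fold change of each of the 44 genes with Dex alone (x axis, Dex against vehicle) and with Dex on LPS (y axis, LPS + Dex against LPS), 1 panel per genotype, on the log2(FPKM + 1) scale; bars are standard errors, and red marks a called difference between the effects. Lipa lies far left at -1.78 and near 0 on the y axis in WT, and Gm2a, Tfeb and Ctsd lie above the diagonal.

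DAMPs by themselves moved few members past the test. In WT, 0 of 44 members were called by limma (4 at an unadjusted p under 0.05), with 2.01% of all genes called. Of the same members, 2 rose and 1 fell in cells labelled AMPKα1-/-, where 1.89% of all genes rose and 2.24% fell. These 3 were Npc2, Ctss and Lipa. Npc2 stood at 403, 357 and 314 FPKM with vehicle and 607, 504 and 563 FPKM with DAMPs (0.64 ± 0.16, limma adjusted p = 0.0178). Ctss stood at 1564, 1576 and 1794 and 2595, 2545 and 2947 FPKM (0.71 ± 0.18, limma adjusted p = 0.0148), and Lipa at 565, 576 and 645 and 332, 398 and 358 FPKM (-0.72 ± 0.19, limma adjusted p = 0.0216). The groups did not overlap for any of them. Each call was lost when some single libraries were left out: Npc2 without DAMPs replicate 1 or 3 or vehicle replicate 2 or 3 of those cells (adjusted p up to 0.133), Lipa without the same 4 (up to 0.118), and Ctss without vehicle replicate 1 or 2 or DAMPs replicate 3 (up to 0.0875). In WT the same contrasts were 0.49, 0.51 and -0.58 (limma adjusted p = 0.150, 0.173 and 0.125), and the difference between genotypes was not called for any member.

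Between the labelled genotypes, Ctsk was the one member called in more than 1 treatment. It was lower in cells labelled AMPKα1-/- with vehicle, Dex, DAMPs and DAMPs + Dex, and no other member was called outside Dex. The calls were 1 member with vehicle (0.432% of all genes), 1 with DAMPs (0.731%) and 1 with DAMPs + Dex (1.06%), all of them Ctsk. With LPS limma called 0 members (6 at an unadjusted p under 0.05; 0.766% of all genes called), and with LPS + Dex 0 (3; 0.669%). Ctsk stood at 14.2, 6.297 and 15.7 FPKM in WT vehicle libraries and 4.43, 3.503 and 4.08 FPKM in those labelled AMPKα1-/- (-1.301 ± 0.24, limma adjusted p = 0.00495). It stood at 13.3, 10.4 and 12.4 and 4.61, 5.15 and 3.77 FPKM with Dex (-1.24 ± 0.24, limma adjusted p = 0.00222), and at 16.98, 8.19 and 17.4 and 5.06, 4.77 and 5.62 FPKM with DAMPs (-1.24 ± 0.24, limma adjusted p = 0.00870). With DAMPs + Dex it was at 13.03, 12.96 and 13.4 and 4.33, 3.26 and 4.52 FPKM (-1.499 ± 0.24, limma adjusted p = 8.53e-04). Every WT library was above every library labelled AMPKα1-/- of the same treatment. The vehicle call was lost without WT vehicle replicate 1 (adjusted p = 0.0643) or 3 (0.0776), and the DAMPs call without DAMPs replicate 2 of the cells labelled AMPKα1-/- (0.0567) or WT DAMPs replicate 1 (0.0812) or 3 (0.0690).

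Fibroblasts are also known to make Ctsk, and their markers differed between the libraries too. Col1a1, a collagen gene, was at 6.99, 0.468 and 4.08 FPKM in WT vehicle libraries and 0.694, 1.26 and 0.586 FPKM in those labelled AMPKα1-/-. The 6 listed markers, of which Col1a2 was the most abundant, summed to 18.3, 1.49 and 9.76 FPKM and 1.16, 2.77 and 1.38 FPKM with vehicle, 11.9, 15.1 and 24.7 and 3.903, 4.52 and 2.99 FPKM with Dex, 13.7 and 16.4 and 7.08, 11.01 and 8.05 FPKM with LPS, 9.33, 2.64 and 8.22 and 3.39, 6.05 and 1.41 FPKM with LPS + Dex, 5.19, 1.34 and 8.22 and 1.94, 3.12 and 1.73 FPKM with DAMPs, and 9.42, 14.1 and 18.5 and 4.39, 3.74 and 1.997 FPKM with DAMPs + Dex. In WT, Col1a1 averaged 3.85 FPKM with vehicle, 6.97 FPKM with Dex and 2.96 FPKM with LPS. Ctsk libraries overlapped between vehicle and Dex, and Ctsk stood at 1.34 and 1.61 FPKM with LPS. The marker sums with LPS lay within the vehicle range. WT replicate 2 had the lowest marker sum with vehicle, LPS, LPS + Dex and DAMPs, but not with Dex or DAMPs + Dex. Every WT sum lay above every sum labelled AMPKα1-/- with Dex, LPS and DAMPs + Dex. With the other treatments the ranges overlapped. In replicate 2 of WT vehicle, Col1a1 was below all 3 vehicle libraries labelled AMPKα1-/- and the summed markers lay within their range. Ctsk in that replicate, at 6.297 FPKM, was the lowest of WT vehicle and above all 3 vehicle libraries labelled AMPKα1-/-. Members of the sum went both ways with LPS in WT. Lum averaged 0 FPKM, Dcn 0.210 FPKM and Pdgfra 0.117 FPKM in WT vehicle libraries, and 5.12, 3.23 and 0.114 FPKM with LPS. Col1a2 averaged 4.53 FPKM with vehicle and 2.63 FPKM with LPS. The 12 neutrophil markers summed to 41.9, 6.58 and 22.2 FPKM in WT and 61.1, 53.4 and 32.2 FPKM in cells labelled AMPKα1-/- with vehicle. The 6 osteoclast markers summed to 87.2, 42.1 and 70.3 and 22.3, 51.96 and 44.7 FPKM, with WT replicate 2 the lowest of WT as for Ctsk, and these ranges overlapped. On average Mmp9 was at 40.7 and 19.4, Dcstamp at 13.9 and 9.68 and Acp5 at 11.8 and 10.47 FPKM, while Calcr, Ocstamp and Oscar were below 1 FPKM in both genotypes. The part of other cells in the Ctsk result was not tested.

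**Figure D5:**
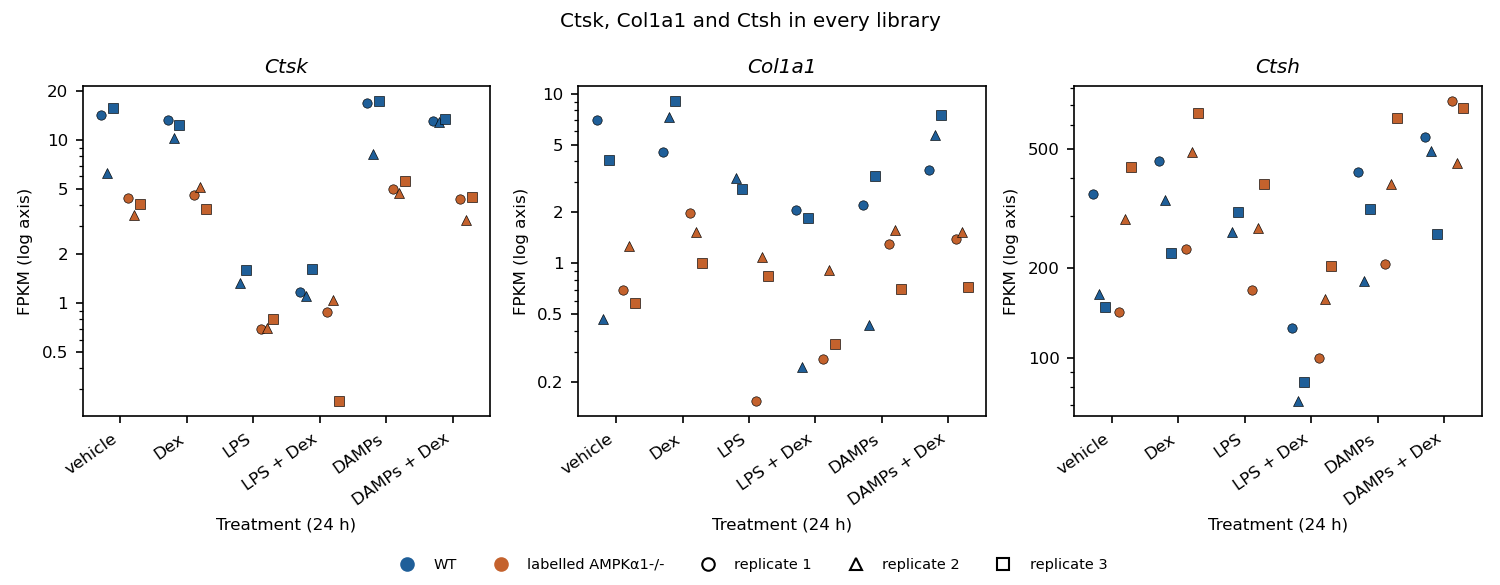
FPKM of Ctsk, Col1a1 and Ctsh in each library by treatment and genotype; marker shapes give the replicate number. Ctsk in WT lies above the libraries labelled AMPKα1-/- in every treatment, with WT replicate 2 lowest, and Ctsh spreads from 143 to 435 FPKM within the vehicle libraries labelled AMPKα1-/-.

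With Dex, 8 members differed between the labelled genotypes (1 higher and 7 lower in cells labelled AMPKα1-/-), where 26.5% of all genes were called, 11% higher and 15.5% lower. The lower members were Ctsk, Galc, Npc1, Mcoln1, Arsb, Manba and Sgsh, and the higher one was Fuca1 (0.42). Npc1 stood at 86.6, 92.5 and 83.8 FPKM in WT and 53.5, 36.3 and 56.9 FPKM in cells labelled AMPKα1-/- (-0.85 ± 0.19, limma adjusted p = 0.00618), and Mcoln1 at 66.3, 120.5 and 85.7 and 52.4, 39.03 and 57.4 FPKM (-0.84 ± 0.19, limma adjusted p = 0.00564). The WT libraries were higher for both genes, replicate 2 of WT being the highest and replicate 2 of the other group the lowest. Without that Dex library of the cells labelled AMPKα1-/-, limma called 1 member, and the adjusted p was 0.0724 for Npc1 and 0.0654 for Mcoln1. Without WT Dex replicate 2 it called 2 members (Mcoln1 0.0718), and without WT Dex replicate 1 it called 5. Ctsk was the one call that held whichever library was left out. Arsb and Galc were lost without replicate 2 of either genotype (adjusted p up to 0.142 and 0.134). Fuca1 and Manba were lost without those or WT replicate 1 (up to 0.229 and 0.135), and Sgsh was lost without replicate 1 or 2 of either (up to 0.180). With libraries centred on one median, the share of all calls that were higher in cells labelled AMPKα1-/- moved from 41.4% to 59.1%. No difference between genotypes in the response to a treatment was called for any member. By limma the calls were 0 of 44 for each of the 5 responses tested (Dex, LPS, LPS + Dex against LPS, DAMPs, and DAMPs + Dex against DAMPs), with 4, 5, 3, 0 and 0 members and 2441, 514, 311, 66 and 234 of all genes at an unadjusted p under 0.05, and it called 0 of all genes. For the fall of Lipa with LPS the difference between genotypes was 0.24 ± 0.28 on the log2 scale, and for the rise of Sgsh with LPS + Dex against LPS it was -0.01 ± 0.26. For the Dex response of Galc it was -0.81 ± 0.35 (limma adjusted p = 0.205).

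The rest of the lysosomal pathway was followed in 7 lists. With LPS in WT, 14 of 21 other hydrolases and 14 of 19 other membrane proteins fell, and 4 and 2 rose (limma; 35.8% of all genes fell). The macrosialin gene Cd68, used as a macrophage marker, changed by -3.02 ± 0.24 (limma adjusted p = 1.60e-11). Acp5, a phosphatase also known from osteoclasts, rose by 3.94 ± 0.25 (limma adjusted p = 1.33e-13), and Clcn7, the chloride exchanger of the lysosome, by 2.18 ± 0.17 (limma adjusted p = 1.94e-11), so the falls were not shared by every lysosomal gene. Of 17 subunits of the V-ATPase, the proton pump that acidifies the lysosome, 8 fell and 2 rose, with Atp6v0d2 at -4.94 ± 0.40 (limma adjusted p = 3.13e-11) and a list median of -0.19, where that of all genes was -0.19. Among 13 sorting genes 4 fell and 2 rose. The farthest fall was that of Sort1, which carries hydrolases and prosaposin to the lysosome, at -3.68 ± 0.27 (limma adjusted p = 3.28e-12). Of 19 genes of the TFEB family and its control 12 fell and 2 rose. Those that fell included Flcn (-2.47) and Fnip2 (-2.54), which form a complex that keeps TFEB relatives out of the nucleus. Of 19 autophagy genes 13 fell, including the initiating kinase gene Ulk1 (-1.81), and 1 rose. Of 7 cathepsin inhibitors 3 were tested: Cst7 rose (3.58) and Cst3, the secreted cystatin C, fell (-1.399). In cells labelled AMPKα1-/- the falls numbered 14 hydrolases, 13 membrane proteins, 8 V-ATPase subunits, 6 sorting genes, 12 genes of the TFEB list and 13 autophagy genes, and the rises 4, 4, 4, 1, 2 and 1, in the same order. Of all genes 44.1% fell and 20.2% rose there, so the shares of V-ATPase and sorting genes that fell were near that of all genes.

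With LPS + Dex against LPS in WT, the numbers higher and lower were 7 and 2 for the other hydrolases, 4 and 3 for the membrane proteins, 2 and 2 for the V-ATPase, 2 and 2 for sorting, 7 and 3 for the TFEB list and 5 and 1 for autophagy (16.6% and 17.5% of all genes). In the same order they were 6 and 4, 5 and 4, 1 and 2, 3 and 2, 6 and 3, and 5 and 2 in cells labelled AMPKα1-/- (19.3% and 18.4% of all genes). Sort1 changed by 4.703 ± 0.27 (limma adjusted p = 5.32e-14) in WT and by 4.54 in cells labelled AMPKα1-/-, the largest rise of its list. Wipi1, which binds phosphoinositides on forming autophagosomes, rose by 2.88 ± 0.17 (limma adjusted p = 1.71e-13), while Tfec, a macrophage relative of Tfeb, fell by 2.01 and Mitf by 1.06 on the log2 scale, opposite in sign to Tfeb. Both cystatins turned as well, Cst3 to 1.53 and Cst7 to -2.28. With Dex alone in WT the numbers were 4 and 4 for hydrolases, 4 and 1 for membrane proteins, 1 and 5 for the V-ATPase, 1 and 2 for sorting, 5 and 4 for the TFEB list and 4 and 0 for autophagy (15.9% and 14.9% of all genes), with Atp6v0a1 lower at -1.68 ± 0.20 (limma adjusted p = 2.91e-07). Those in cells labelled AMPKα1-/- were 5 and 4, 4 and 3, 1 and 5, 1 and 5, 1 and 2, and 6 and 1 (11.9% and 16% of all genes). DAMPs against vehicle in cells labelled AMPKα1-/- called 1 other hydrolase and 1 V-ATPase subunit (1.89% of all genes higher and 2.24% lower), and 0 genes of the other lists. In WT it called 1 other hydrolase higher and 1 autophagy gene lower (2.01% of all genes called).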

How the data were processed

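RNA was extracted with TRIzol and sequenced by a service provider. The authors deposited FPKM per Ensembl gene for each library, and no read counts were used. Bowtie2 2.2.3, TopHat2 2.0.12, HTSeq 0.6.1 and DESeq2, and the build GRCm38 (mm10), are named in the submitters' processing notes; the annotation release behind the gene lengths is not given in the sources used here. FPKM is scaled to library depth, so large changes in a few genes move all others. The members and lists were chosen with earlier results of these data known. All 44 members passed the filter (mean FPKM of at least 1 over 35 libraries; 11354 of 47069 identifiers). Values were taken as log2(FPKM + 1), so fold changes of low genes are understated, and all 12 groups were fitted at once with limma 3.58.1 (R 4.3.3; trended empirical Bayes, two-sided, Benjamini-Hochberg over all genes within each of 25 comparisons, threshold 0.05), without a replicate block.

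Members followed in every library were the 4 largest called changes without overlap in each treatment comparison, the 3 smallest p-values in each other comparison, Tfeb and Lamp1. In related lists, 2 genes were named by the size of change, with some not reported here. Fragments per library were estimated from the steps between low FPKM values; 55.1% to 63.4% of the values under 10 fragments came out whole within 0.001, too few for a count test. Replicates correlated at r = 0.967 to 0.993 over 34 pairs, with no pair holding identical values. Whether replicate numbers pair libraries was checked from their deviations from group means: all 3 pairs exceeded a correlation of 0.1 in cells labelled AMPKα1-/- for Dex against vehicle (0.22 to 0.40), LPS against vehicle (0.12 to 0.32), LPS + Dex against LPS (0.36 to 0.37) and LPS + Dex against vehicle (0.25 to 0.36), and for the genotype contrast with LPS + Dex (0.12 to 0.51), but in no other comparison with 3 pairs. The fit was tested on simulated data for LPS against vehicle in WT over 11354 genes: it recovered 68% of genes changed by 1 and 98% of those changed by 2 on the log2 scale. It made 9 false calls there, and 0 calls in a comparison with no change. In that simulation 100 genes of each size were changed, in WT with LPS only, and the noise was independent between libraries. Shifts of many genes and deviations shared by replicate numbers, both present in these data, were not simulated. Alternatives were a pseudocount of 0.1, a minimum of 5 FPKM or none, centring, quantile normalization, limma without trend, only the groups compared, the replicate block, and leaving out each library. Figures were drawn with matplotlib 3.10.9.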

Additional observations from a re-analysis of the deposited data

Results flagged for a closer look

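The effect of Dex on 5 members differed with LPS beyond the spread between libraries by the test of the difference itself (limma, LPS + Dex against LPS minus Dex against vehicle), which is what singled them out; they are the 3 members with the smallest p-values in each genotype. In WT BMDMs the difference on the log2 scale was 1.69 for Gm2a, 1.62 for Tfeb and 1.53 for Ctsd, with limma adjusted p = 3.55e-06, 7.65e-07 and 3.02e-06. In BMDMs labelled AMPKα1-/- it was 2.02 for Lipa, 1.47 for Manba and 1.31 for Tfeb, with limma adjusted p = 1.01e-06, 1.01e-05 and 6.79e-06. The difference for Lipa sets a fall of 1.88 without LPS beside a change of 0.14 at an LPS level of 43.7, 39.8 and 31.3 FPKM.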

How the results depend on the processing

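Of the counts of members called, 195 of 200 under the alternatives other than leaving out a library stayed within 1.5 times the value reported. Those that moved were DAMPs + Dex against DAMPs in WT (9 members with only the groups compared in the fit), the genotype contrast with vehicle (0 with only the groups compared), with Dex (5 with no filter on low values) and with DAMPs (0 with a pseudocount of 0.1 and 0 with only the groups compared). Leaving out 1 library at a time, the counts ran from 0 to 1 for DAMPs against vehicle in WT, 0 to 3 in cells labelled AMPKα1-/-, 0 to 1 for the genotype contrast with vehicle, 1 to 9 with Dex, 0 to 1 with LPS and 0 to 1 with DAMPs; where WT LPS was left with 1 library, that library was assumed to vary like the others. Among single members followed under the alternatives other than leaving out a library, 620 values kept direction and call, 8 lost and 3 gained a call, and Lamp1 with DAMPs + Dex against DAMPs in cells labelled AMPKα1-/- turned sign when centred (-0.00129). Without DAMPs + Dex replicate 1 of those cells, Tfeb turned sign (0.0214, the highest value without 1 library, the lowest being -0.259); neither was called. The Ctsk genotype call with vehicle and with DAMPs was also lost with only the groups compared (adjusted p = 0.253 and 0.308). The cause was not tested. With the replicate block the members higher and lower were 9 and 9, 2 and 33, 16 and 8 and 2 and 38 in WT and 8 and 7, 3 and 34, 15 and 10 and 2 and 35 in cells labelled AMPKα1-/- for Dex against vehicle, LPS against vehicle, LPS + Dex against LPS and LPS + Dex against vehicle. The shares of all genes with the block are not reported here, so these counts cannot be set against them. Apart from the members given beside their results, the block changed no call in the comparisons with 3 pairs where the numbers pair libraries. LPS + Dex against LPS in WT has 2 pairs, with correlations of 0.11 and 0.43. There the block also called Psap, Neu1 and Arsa higher (limma adjusted p = 0.0268, 0.0218 and 0.0291, without it 0.125, 0.0550 and 0.138). The difference between genotypes in the response, called for 0 genes as reported, was called with no filter on low values for 7 and 14 genes higher and lower for Dex, 27 and 91 for LPS, 58 and 17 for LPS + Dex against LPS, 2 and 0 for DAMPs and 6 and 3 for DAMPs + Dex against DAMPs, and by the other alternatives, leaving out a library apart, for up to 5 genes (LPS with the replicate block), 0 of them members in each. With 1.43 and 1.62 FPKM of Sgsh and under 2 FPKM of Ctsk with LPS, the pseudocount of 1 understates their folds.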

Other observations

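Some members followed the replicate number across treatments, which are separate libraries. They were picked from the 44 for this order, and the share of all genes that show it is not reported here. Ctsh was highest in replicate 1 in 5 of 5 WT groups that have one, and in cells labelled AMPKα1-/- it was lowest in replicate 1 and highest in replicate 3 in 5 of 6 groups. Man2b1 and Mcoln1 were highest in WT replicate 2 in 6 of 6 groups, and Ctsk and Gla lowest there in 6 of 6. Ctsl and Smpd1 were highest in replicate 2 of the cells labelled AMPKα1-/- in 6 of 6 groups. What the replicate numbers mark is not given in the sources used here, and the groups are not independent if they share a culture.

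In WT, Acp5 averaged 11.8 FPKM with vehicle, 62.1 with Dex, 195 with LPS and 683 with LPS + Dex, while Dcstamp, another osteoclast marker, averaged 13.9, 0.179, 4.33 and 0.203 FPKM. The 9 macrophage markers went both ways with Dex: in WT, Mertk, an efferocytosis receptor, averaged 37.8 FPKM with vehicle and 204 FPKM with Dex, Fcgr1 80.6 and 8.095 FPKM, and Itgam 63.5 and 11.5 FPKM. Lyz2, the secreted lysozyme, averaged 12857 FPKM with LPS and 26029 FPKM with LPS + Dex, Fcgr1 323 and 70.96 FPKM, and Cd14 1632 and 907 FPKM.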
